A study of Mus musculus with 2 samples.

Results

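Neurotrophic factors and the receptors of calcitonin gene-related peptide (CGRP) were followed across the cells of the mouse temporomandibular joint (TMJ), as candidates for signals between joint tissue and sensory nerves. The 9 genes were the ligands Bdnf, Ntf3, Gdnf and Artn, the neurotrophin receptors Ntrk2, Ntrk3 and Ngfr, and the CGRP receptor genes Calcrl and Ramp1, out of 32285 genes counted. The rule took them by name and used no measured value, though earlier results of these data were known when they were chosen. Of these, 6 had at least 100 unique molecular identifiers (UMIs, each standing for 1 captured transcript) over both libraries, and Ngfr, Gdnf and Artn had fewer.

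Both single-cell RNA-seq libraries came from wild-type C57BL/6 mice, with the age given as 8-10 weeks. In the CFA group, complete Freund's adjuvant, an oil emulsion with killed mycobacteria that sets off lasting inflammation, had been injected into the joint, and the PBS group had received buffer. According to the methods, the mice were female and both joints were injected with 10 µL (CFA at 5 mg/mL) at 8 weeks of age. Tissue was taken 3 weeks later, and cells bearing CD45 were depleted before loading. The age of 8-10 weeks therefore does not match the methods as an age at collection. Bone, disc, muscle and ligament around the joint went into the tissue, and immune classes were still found, with 65 PBS and 329 CFA neutrophil-like cells, 209 and 150 B cell-like cells and 18 and 310 macrophage-like cells. With 1 library per condition there is no replicate error. All intervals below are 95% intervals for counting error alone, and a difference is one between these 2 libraries.

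After the limits on genes, mitochondrial and hemoglobin UMIs, 2667 PBS cells (34.8% of the barcodes) and 4014 CFA cells (70.3%) remained, with median UMI counts of 7022 and 6509.5. Before the hemoglobin limit, 5845 PBS and 4353 CFA barcodes had passed the other limits. The libraries shared 10 barcode sequences, 2 of them in kept cells. Of 36 clusters, 30 took a class name from marker genes, holding 5969 of the 6681 cells, and 10 classes had at least 50 cells in each library. Levels are UMIs per 1000000 UMIs of the class or cluster (CPM). Erythroid-like cells differed in depth, with a median of 18365 UMIs with PBS and 2016 with CFA, and neutrophil-like cells stood at 8355 and 5189.

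Neurotrophins are secreted proteins that keep sensory and sympathetic neurons alive and tune their sensitivity. BDNF binds the receptor tyrosine kinase TrkB (Ntrk2), neurotrophin-3 (Ntf3) binds TrkC (Ntrk3), and p75 (Ngfr) binds every neurotrophin. GDNF and artemin (Artn) act through Ret and a GFRα co-receptor. CGRP, a vasodilator peptide of nociceptors, needs a receptor of 2 parts, Calcrl and Ramp1, whereas Calcrl with Ramp2 or Ramp3 responds mainly to adrenomedullin.

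Upstream sequences are shown for 4 genes whose cell distributions the results turn on: both parts of the CGRP receptor, which were mostly found in different cells, and Ntf3 and Ntrk2. Each is the 250 bases before an annotated RefSeq start site (GRCm38.p6), written 5′ to 3′ on the gene's strand, with CG dinucleotides in capitals. Calcrl is at chr2:84425267-84425516 (minus strand), Ramp1 at chr1:91179572-91179821 (plus strand), the second Ntf3 start site at chr6:126164961-126165210 (minus strand) and Ntrk2 at chr13:58806319-58806568 (plus strand).
Calcrl: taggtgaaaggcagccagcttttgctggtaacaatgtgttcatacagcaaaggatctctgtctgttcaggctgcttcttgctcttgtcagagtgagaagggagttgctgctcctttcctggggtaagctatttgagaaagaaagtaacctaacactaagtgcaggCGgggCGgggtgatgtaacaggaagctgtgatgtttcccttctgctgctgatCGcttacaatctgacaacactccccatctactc
Ramp1: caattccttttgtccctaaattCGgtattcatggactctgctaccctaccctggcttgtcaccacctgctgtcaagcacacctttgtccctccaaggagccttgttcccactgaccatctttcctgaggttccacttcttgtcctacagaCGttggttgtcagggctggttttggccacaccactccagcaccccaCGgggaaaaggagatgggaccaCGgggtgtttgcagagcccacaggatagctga
Ntf3: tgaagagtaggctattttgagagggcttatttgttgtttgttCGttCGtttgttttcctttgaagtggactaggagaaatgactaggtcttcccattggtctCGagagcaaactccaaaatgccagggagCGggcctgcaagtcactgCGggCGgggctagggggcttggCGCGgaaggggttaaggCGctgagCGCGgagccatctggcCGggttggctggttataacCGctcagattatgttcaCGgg
Ntrk2: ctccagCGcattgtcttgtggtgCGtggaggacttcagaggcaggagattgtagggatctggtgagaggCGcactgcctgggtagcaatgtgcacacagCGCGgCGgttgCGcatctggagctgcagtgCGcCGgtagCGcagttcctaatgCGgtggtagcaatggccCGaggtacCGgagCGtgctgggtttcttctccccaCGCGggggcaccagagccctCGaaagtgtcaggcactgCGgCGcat
Calcrl and Ramp1 held few CG dinucleotides, 3 and 4, below the median of 6 over 32841 windows of this length. The Ntf3 window held 14 and the Ntrk2 window 19, a count reached or passed in 19.7% of all windows. The GC box GGGCGG, searched on both strands, was found in 7 of the 16 windows of the 8 genes that had one, those printed for Calcrl and Ntf3 among them, and in 32.7% of all windows. These are descriptions of the letters, and no binding was measured.

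**Figure D1:**
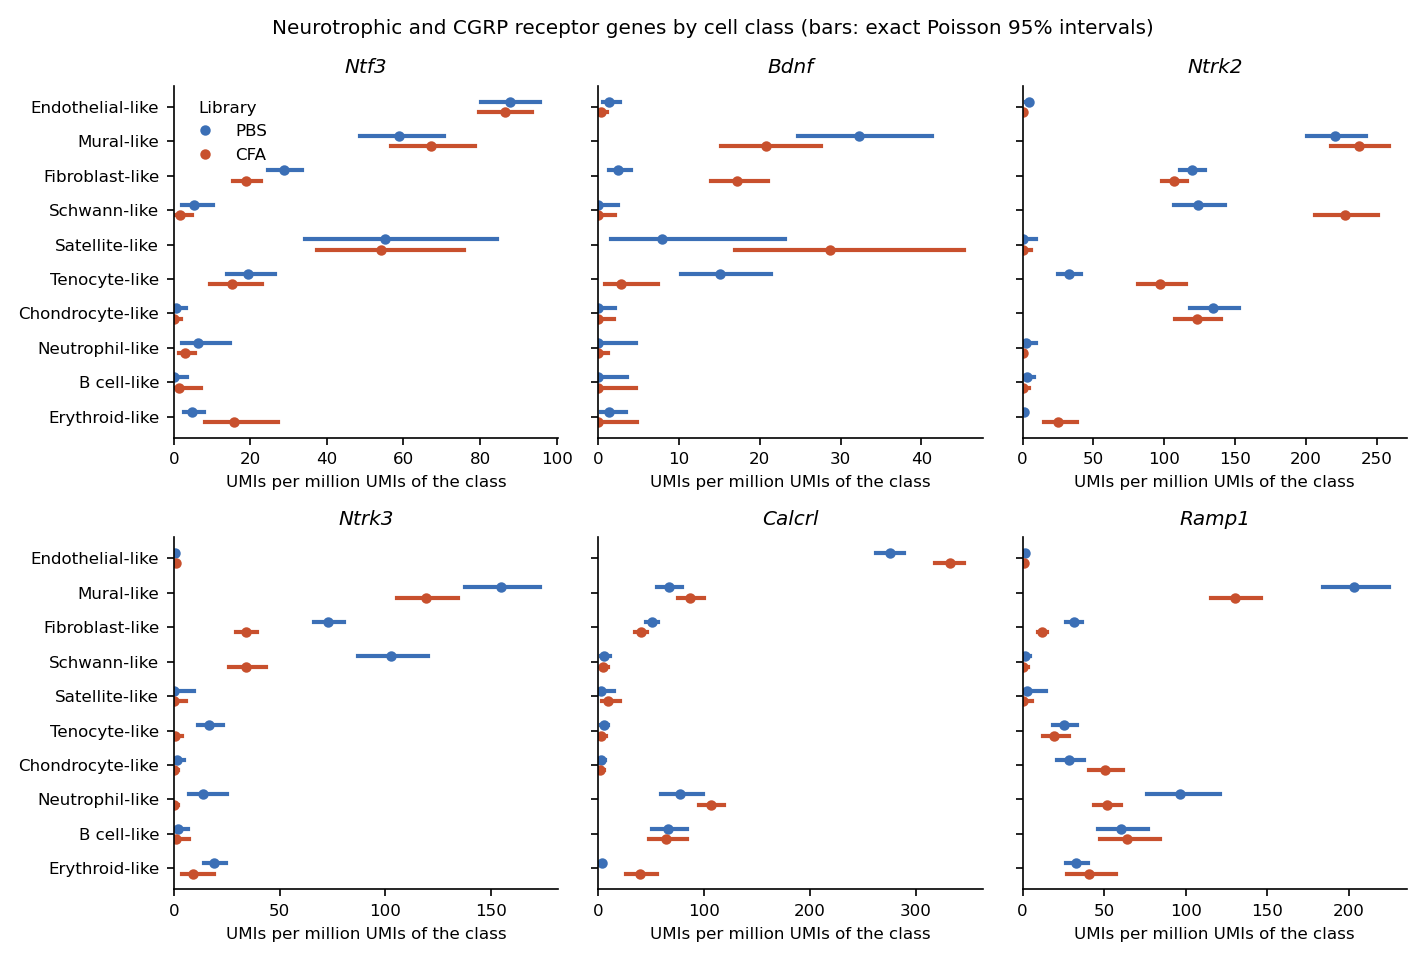
Levels (CPM) of the 6 genes with at least 100 UMIs, in 10 named cell classes of the PBS and CFA libraries. Points are levels and bars exact Poisson 95% intervals. Ntf3 and Calcrl had their highest level in endothelial-like cells and Bdnf (PBS library), Ntrk2, Ntrk3 and Ramp1 in mural-like cells.

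Ntf3 (chr6:126101412-126166910, minus strand, GRCm38) was a gene of the joint vessels in both libraries. Endothelial-like cells held 87.7 (80.3-95.6) CPM with PBS and 86.4 (79.6-93.7) with CFA, from 516 and 594 UMIs. The CFA to PBS ratio was 0.985 (0.874-1.11). A Ntf3 UMI was found in 272 of 754 PBS cells (36.1%) and 307 of 1045 CFA cells (29.4%), and in 10.5% and 9.97% after each cell was thinned to 1000 UMIs, beside unthinned medians of 5408 and 4398 UMIs per cell. B cell-like cells, a class in which the gene would not be looked for, had a Ntf3 UMI in 0 of 209 PBS cells, which allows a share of up to 1.44%, and in 1 of 150 CFA cells. Endothelial-like cells gave 56.1% (PBS) and 56.8% (CFA) of all Ntf3 UMIs, while giving 21.6% and 15.5% of all UMIs.

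Mural-like cells, the contractile cells of vessel walls, came next with 58.9 (48.6-70.7) and 67.1 (56.8-78.6) CPM of Ntf3. Satellite-like cells, the muscle stem cells, held 55.3 (34.2-84.5) and 54.2 (37.5-75.7). Over both libraries the order was endothelial-like at 87.0 (82.0-92.3), mural-like at 63.3 (55.9-71.3), satellite-like at 54.6 (41.1-71.0) and fibroblast-like at 24 (21.2-27.0), in which the mural-like and satellite-like intervals overlapped and the others did not.

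Within the endothelial-like class the level of Ntf3 differed between clusters, and so did its difference between libraries. The Car4 capillary cluster held 119 (103-138) with PBS and 162 (139-187) with CFA, a ratio of 1.35 (1.10-1.67). The cluster led by Ccdc85a and Slfn5 held 111 (92.4-131) and 160 (136-188), a ratio of 1.45 (1.14-1.84), and the one led by Ccdc85a and Bmp6, in which Car4 and Cd36 were detected, held 168 (139-201) and 194 (165-226), a ratio of 1.15 (0.903-1.47). Arterial cells held 45.8 (33.9-60.6) and 35.0 (25.1-47.5), and Plvap venular cells 26.3 (18.5-36.2) and 20.7 (15.7-26.8). The 3 clusters with the most Ntf3 were thus higher in the CFA library and the 2 with the least were lower, with intervals of the ratio that left out 1 in the first 2 of these 5. Venular cells, the cluster lowest in Ntf3, went from 104 of 754 endothelial-like cells to 187 of 1045 and had median UMI counts of 11215 and 12836.

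Among mural-like cells, Ntf3 lay with the cluster led by Myh11 and Acta2, smooth muscle genes, at 90.9 (74.5-110) and 88.9 (75.1-105). The cluster led by Actg2, Rgs5 and Vtn, with Cnn1 also among its leading genes, held 11.4 (5.23-21.7) and 11 (4.42-22.7). All 7 mural markers, Myh11 and Acta2 among them, were detected in both clusters. The short names of the clusters give leading genes and do not separate kinds of mural cell. Fibroblast-like cells held 28.8 (24.6-33.5) and 19.0 (15.6-22.9), a ratio of 0.658 (0.512-0.843). That difference was not shared by all fibroblast-like clusters. Sublining cells, without neuron-like cells described below, held 57.1 (46.9-68.8) and 65.4 (51.9-81.4), and adventitial cells (Pi16, Dpp4) held 16 (10.6-23.1) and 4.74 (2.65-7.82), a level 3.37-fold lower in the CFA library.

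**Figure D2:**
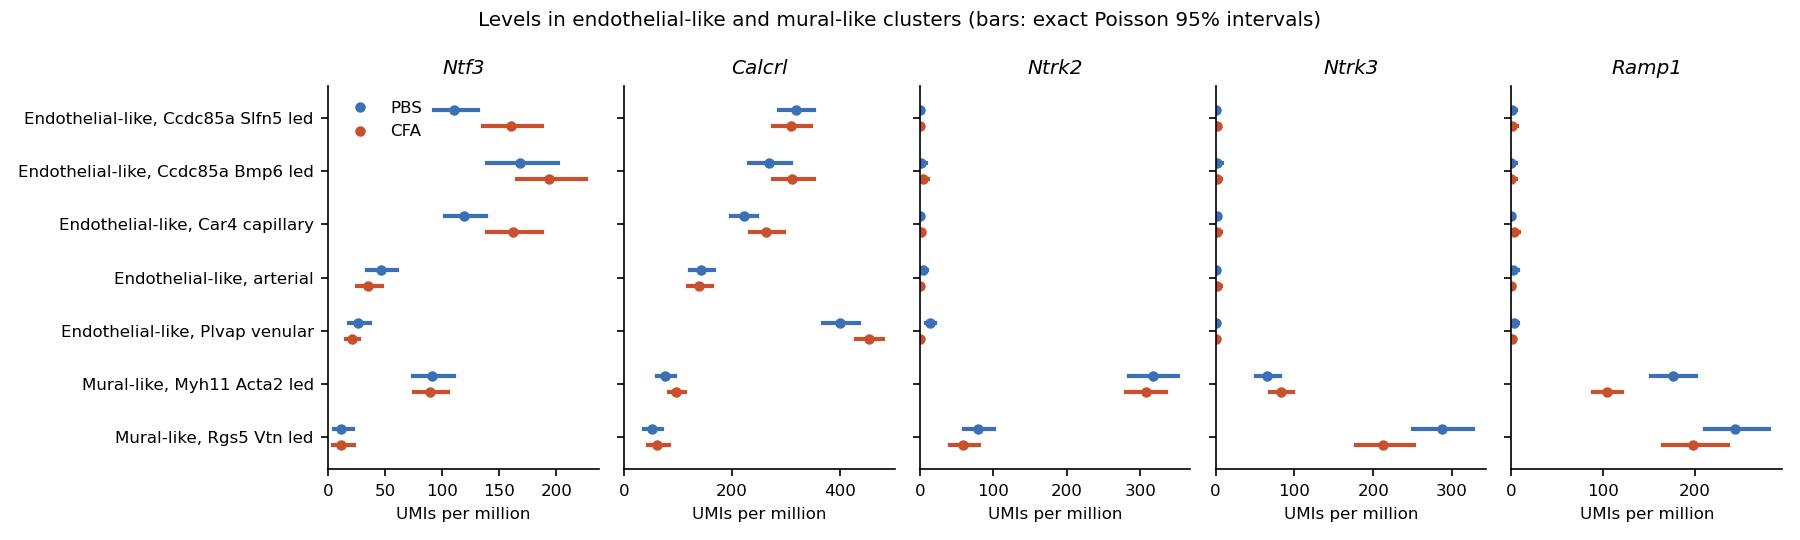
Levels (CPM of the cluster) of Ntf3, Calcrl, Ntrk2, Ntrk3 and Ramp1 in the 5 endothelial-like and 2 mural-like clusters, with exact Poisson 95% intervals, PBS and CFA side by side. Ntf3 was lowest in the venular cluster (26.3 and 20.7) of the endothelial-like clusters, where Calcrl was highest (400 and 454), and Ntrk2 and Ntrk3 favoured opposite mural-like clusters.

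Bdnf (chr2:109674700-109727007, plus strand) was sparse, with 143 UMIs with PBS and 174 with CFA. Mural-like cells held 32.3 (24.8-41.3) CPM with PBS and 20.7 (15.2-27.6) with CFA, from 63 and 47 UMIs in 25 of 180 and 19 of 222 cells. The ratio was 0.643 (0.431-0.953), but its interval held 1 in 5 other processings, with ratios up to 0.829 (0.549-1.25). The cluster led by Actg2, Rgs5 and Vtn carried the difference, with 29 UMIs (36.8 CPM, 24.7-52.9) with PBS and 6 (9.43, 3.46-20.5) with CFA. The Myh11 cluster had 34 and 41 UMIs, or 29.2 (20.2-40.8) and 25.2 (18.0-34.1) CPM, a ratio of 0.862 (0.534-1.40).

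Outside the vessel wall, Bdnf differed between the libraries by more than 2-fold in several classes, each on few UMIs. Tenocyte-like cells (Tnmd, Scx) had 31 UMIs with PBS and 4 with CFA, or 15.0 (10.2-21.3) and 2.88 (0.785-7.38) CPM, 5.22-fold lower in the CFA library. Satellite-like cells had 3 and 18 UMIs, or 7.89 (1.63-23.1) and 28.7 (17.0-45.3) CPM. The unnamed cluster led by Dok6, Gpc5 and Plppr1, in which the osteoblast genes Runx2 and Sp7 were detected, had 17 and 4 UMIs and a level 12.1-fold lower in the CFA library. No Bdnf UMI was found in Schwann-like, B cell-like, neutrophil-like or chondrocyte-like cells of either library.

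Fibroblast-like cells held 14 Bdnf UMIs (2.40 CPM, 1.31-4.03) with PBS and 98 (17.2, 14.0-21) with CFA, a ratio of 7.16 (4.07-13.6). Of the 98, 66 lay in neuron-like cells that had clustered with the sublining fibroblasts. Without those 5 cells the CFA library had 32 UMIs (5.87 CPM, 4.02-8.29), and the ratio was 2.44 (1.27-4.96). Adventitial cells had 0 Bdnf UMIs in 131 PBS cells, which allows up to 1.71 CPM, and 16 UMIs in 8 of 160 CFA cells, which is at least 2.96-fold higher against that limit.

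The GDNF family ligands were at the edge of what this depth can show. Gdnf (chr15:7810846-7837575, plus strand) had 23 UMIs with PBS and 16 with CFA. The largest group of them in the PBS library, 8 UMIs in 3 of 37 cells, lay in the unnamed Dok6 cluster, where 0 of 86 CFA cells had one. Fibroblast-like cells had 8 and 6 Gdnf UMIs and tenocyte-like cells 2 and 4, too few for a direction. Artn (chr4:117926162-117929763, minus strand) had 5 and 10 UMIs, never more than 1 in a cell, with 1 and 5 of them in fibroblast-like cells.

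Ntrk2 (chr13:58806569-59133970, plus strand), the receptor of BDNF, had a broad distribution over mural, glial, cartilage and fibroblast classes. The counts are per gene and read from the 3′ end, so the kinase form and the truncated form of the receptor were not told apart, for Ntrk2 or for Ntrk3. Over both libraries mural-like cells held 230 (215-245) CPM, Schwann-like cells 180 (166-195), chondrocyte-like cells 128 (117-141) and fibroblast-like cells 113 (107-120), and the last pair did not differ beyond their intervals. Endothelial-like cells, the immune classes and satellite-like cells were low, with 25 and 4 UMIs in 754 and 1045 endothelial-like cells and 0 in 56 and 88 satellite-like cells.

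In mural-like cells the Ntrk2 level was 221 (200-243) with PBS and 237 (218-258) with CFA, a ratio of 1.08 (0.946-1.22), which was 1.30 (1.14-1.48) on log-normalized counts, and 54.4% and 55.9% of the cells had a UMI. The Myh11 cluster held 317 (285-351) and 307 (281-335), with a UMI in 71.7% and 71.2% of its cells. The Rgs5 cluster held 78.7 (60.4-101) and 58.1 (40.9-80.1), and the intervals of both clusters overlapped between the libraries.

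Tenocyte-like cells differed in Ntrk2 between the libraries. They held 32.5 (25.2-41.3) CPM with PBS and 97.3 (81.6-115) with CFA, a ratio of 2.99 (2.22-4.07). A UMI was found in 37 of 152 PBS cells (24.3%) and 47 of 112 CFA cells (42.0%), and in 3.95% and 10.7% of cells thinned to 1000 UMIs. The levels of the libraries did not overlap in their counting intervals, and the highest single cell held 17 of the 135 CFA UMIs. This ratio was not computed under another clustering. The class level of Bdnf over both libraries depended on the clustering, at 10.1 CPM as reported and 40.9 with 50 principal components.

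Schwann-like cells held 124 (107-143) CPM of Ntrk2 with PBS and 227 (206-251) with CFA, a ratio of 1.84 (1.54-2.20). The difference rested on a small cluster led by Fabp7, with 3 PBS and 16 CFA cells, all of which had Ntrk2 UMIs, at 604 (378-914) and 775 (685-873) CPM. Without it and the neuron-like cell, the class held 112 (95.6-130) and 98.4 (82.6-116), a ratio of 0.879 (0.696-1.11). Nonmyelinating cells (Scn7a, L1cam), with the neuron-like cell left in, held 265 (204-338) and 196 (148-256). That cell had 63066 UMIs, 4 of them Ntrk2, so without it the CFA level would be higher. Myelinating cells held 62.4 (44.6-85.0) and 26.8 (15.0-44.3), and the cluster led by Kcna1 and Pou3f1 102 (78.5-131) and 115 (89.9-145). Of these 3 clusters, the myelinating one had a ratio whose interval left out 1, at 0.430 (0.221-0.796).

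Fibroblast-like cells held 120 (111-129) and 107 (98.6-116) CPM of Ntrk2, and the clusters went opposite ways. Sublining cells, without the neuron-like cells, held 240 (219-263) and 322 (291-356), a ratio of 1.34 (1.17-1.54). Adventitial cells held 85.5 (72.4-100) and 54.0 (46.2-62.8), a ratio of 0.632 (0.504-0.792). Chondrocyte-like cells of the cluster led by Col2a1 and Snorc, the one found in both libraries, held 116 (99.0-134) and 123 (108-140).

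Ntrk3 (chr7:78175959-78738012, minus strand), the receptor of neurotrophin-3, was also highest in mural-like cells among the compared classes, but in the other cluster. Over both libraries mural-like cells held 136 (125-147) CPM, Schwann-like cells 65.5 (57.1-74.8) and fibroblast-like cells 53.8 (49.7-58.2), the last pair with overlapping intervals. Unnamed clusters, which were not ranked, gave 11.3% (PBS) and 46.3% (CFA) of all Ntrk3 UMIs. Mural-like cells gave 26.1% and 25.6%. The Rgs5 cluster held 287 (251-327) with PBS and 212 (178-251) with CFA, against 65.2 (51.4-81.6) and 82.8 (69.4-98.0) in the Myh11 cluster. Ntrk2 had the reverse order of the clusters, and Ntf3 went with the Ntrk2 cluster.

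In the class sum, mural-like Ntrk3 was 155 (138-173) with PBS and 119 (105-134) with CFA, a ratio of 0.770 (0.651-0.911). The interval held 1 on log-normalized counts, at 0.918 (0.776-1.08), and without the cells of highest Scrublet score, at 0.934 (0.782-1.11). Scrublet, a doublet caller, had not worked on these cells, so that removal is not a doublet check. The Rgs5 cluster, richer in Ntrk3, made up 81 of 180 mural-like cells with PBS and 69 of 222 with CFA. Endothelial-like cells had 4 and 6 Ntrk3 UMIs and satellite-like cells 0 and 0. Of the mural-like cells with a Ntrk2 UMI, 26 of 98 PBS cells (26.5%) and 25 of 124 CFA cells (20.2%) also had a Ntrk3 UMI, near the 28.9% and 22.5% of all mural-like cells.

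Nonmyelinating Schwann cells, the glia that ensheathe unmyelinated axons, had the highest Ntrk3 level of any named cluster in the PBS library. They held 603 (510-708) CPM with PBS and 193 (145-252) with CFA, from 148 and 54 UMIs in 26 of 43 and 13 of 37 cells. The level was 3.13-fold lower in the CFA library, a ratio of 0.320 (0.230-0.439). The CFA cells included the neuron-like cell of 63066 UMIs described below, which held 4 of the 54. Without that cell the CFA level would be higher and the difference smaller. The whole Schwann-like class without it and the Fabp7 cluster had a ratio of 0.393 (0.286-0.534). The other Schwann-like clusters had almost no Ntrk3, with 3 and 2 UMIs in myelinating cells, 6 and 6 in the Kcna1 cluster and 0 and 0 in the Fabp7 cluster. No single cell held more than 20 of the 148 or 12 of the 54 UMIs.

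A lower Ntrk3 level in the CFA library was also found in fibroblast-like cells, at 73.1 (66.3-80.4) and 34.1 (29.4-39.2), a ratio of 0.466 (0.391-0.553). Adventitial cells carried it, with 200 and 66 UMIs or 114 (98.8-131) and 20.9 (16.1-26.5) CPM, 5.47-fold lower. Sublining cells without the neuron-like cells held 70.2 (58.8-83.1) and 56.4 (43.9-71.4), and the cluster led by Angptl1 and Cilp 41.1 (31.8-52.2) and 44.9 (32.1-61.1), with overlapping intervals in both. Tenocyte-like cells had 34 UMIs in the PBS library, 18 of them in 1 cell, and 1 in the CFA library. The unnamed Dok6 cluster went the other way, with 285 (236-340) and 398 (363-436) CPM and a ratio of 1.40 (1.14-1.72), from 120 and 477 UMIs.

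**Figure D3:**
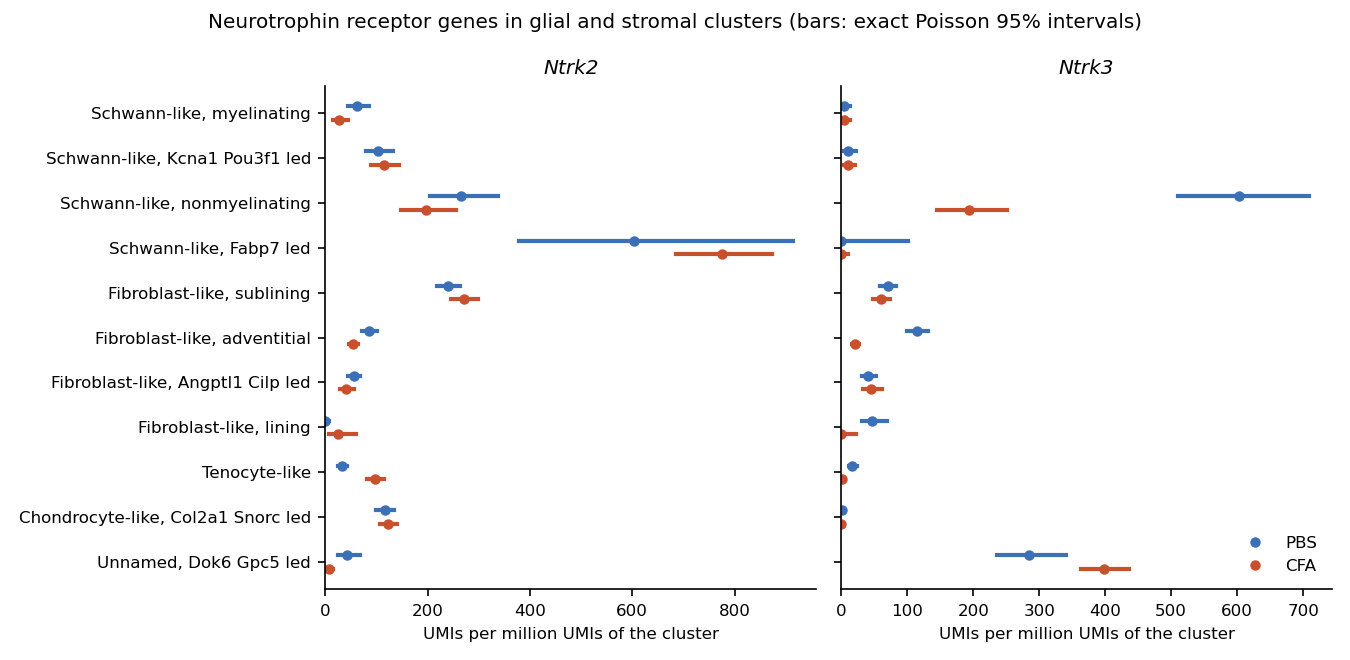
Ntrk2 and Ntrk3 levels (CPM of the cluster) in Schwann-like, fibroblast-like, tenocyte-like, chondrocyte-like and Dok6-led clusters, with exact Poisson 95% intervals. Ntrk3 in nonmyelinating Schwann cells stood at 603 with PBS and 193 with CFA, and Ntrk2 in the Fabp7-led cluster at 604 and 775. Neuron-like cells were left in their clusters.

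Ngfr (chr11:95568818-95587735, minus strand) was rare, with 49 and 36 UMIs. Nonmyelinating Schwann cells held 7 and 9 of them, in 6 of 43 PBS cells (14.0%) and 6 of 37 CFA cells (16.2%). Their levels, with the neuron-like cell left in, were 28.5 (11.5-58.8) and 32.1 (14.7-61.0) CPM. All other Schwann-like cells together had 0 and 1. Satellite-like cells had 5 UMIs in 5 of 56 PBS cells and 1 in 88 CFA cells. Sublining fibroblasts had 11 and 9, of which 6 CFA UMIs were those of neuron-like cells. The fibroblast-like class without the neuron-like cells had 14 and 3, a ratio of 0.229 (0.0422-0.821) on few UMIs. No difference between the libraries was detectable in the Schwann-like class at this depth, where the ratio was 1.20 (0.413-3.72).

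Calcrl (chr2:84330626-84425411, minus strand), the ligand-binding part of the CGRP receptor, was highest in endothelial-like cells among the compared classes. They gave 66.4% (PBS) and 55.6% (CFA) of all Calcrl UMIs. Endothelial-like cells held 275 (262-289) CPM with PBS and 332 (319-346) with CFA, a ratio of 1.21 (1.13-1.29), with a UMI in 64.1% and 56.9% of cells as counted and 21% and 23.2% of cells thinned to 1000 UMIs. Schwann-like cells, with median UMI counts of 3827 and 3433, had a Calcrl UMI in 2.61% and 1.33% of cells. Over both libraries endothelial-like cells stood at 306 (297-316), above neutrophil-like cells at 101 (91.0-111), mural-like cells at 77.5 (69.3-86.4) and B cell-like cells at 65.1 (54.0-77.9), the last pair with overlapping intervals. Outside the compared classes, 151 of 273 CFA cells named from Spp1 macrophage markers (55.3%) had a Calcrl UMI. Their level was 45.9 CPM, with a median of 31705 UMIs per cell. An unnamed cluster led by Abca13 and Slfn4, with few UMIs per cell, held 624 and 532 CPM, from 24 and 15 UMIs.

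Venular cells were highest in Calcrl among the endothelial-like clusters, at 400 (368-435) and 454 (429-479), with a UMI in 87.5% and 86.6% of cells. Arterial cells were lowest, at 143 (121-168) and 139 (119-162). Within the 5 clusters the CFA to PBS ratio ran from 0.972 in the Ccdc85a and Slfn5 cluster to 1.19 in the Car4 capillary cluster, each below the 1.21 of the class, in which venular cells were more numerous in the CFA library. An unnamed cluster led by Fabp4 and Ctla2a, with few UMIs per cell and 6 endothelial markers detected, was not in the class. Its 47 PBS and 195 CFA cells held 72.0 and 213 CPM of Calcrl, a ratio of 2.96 (1.60-5.97), from 12 and 77 UMIs. Lymphatic-like cells, with 18 and 12 cells, held 382 (311-465) and 693 (574-830), and 84 of the 119 CFA UMIs were in 1 cell.

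Ramp1 (chr1:91179822-91225196, plus strand), the accessory part that makes Calcrl a CGRP receptor, was almost absent from those same cells. Endothelial-like cells had 7 Ramp1 UMIs in 754 PBS cells and 6 in 1045 CFA cells, or 1.19 (0.479-2.45) and 0.873 (0.320-1.90) CPM, and 0.531% and 0.574% of cells had one. Mural-like cells were the highest of the compared classes in Ramp1, at 203 (184-224) with PBS and 130 (116-146) with CFA, a ratio of 0.640 (0.549-0.746). A UMI was found in 55.0% and 43.2% of mural-like cells, and in 17.2% and 10.0% of those thinned to 1000 UMIs.

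Both mural-like clusters were lower in Ramp1 in the CFA library, the Myh11 cluster at 176 (153-202) and 104 (88.6-121), a ratio of 0.589 (0.478-0.726), and the Rgs5 cluster at 244 (211-281) and 198 (165-236), a ratio of 0.812 (0.643-1.02). Fibroblast-like cells held 31.2 (26.9-36.1) and 11.9 (9.27-15.1), 2.62-fold lower, or 2.50-fold lower without the neuron-like cells. This was found in sublining, adventitial and Angptl1-led cells, with 75 and 23, 63 and 43, and 33 and 2 UMIs. Their levels were 2.51-fold, 2.64-fold and 9.15-fold lower. Without the neuron-like cells, the sublining level was 2.09-fold lower. Neutrophil-like cells held 96.4 (76.0-121) and 51.7 (43.9-60.4), a ratio of 0.536 (0.405-0.714).

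Cartilage and bone cells went the other way in Ramp1. Chondrocyte-like cells held 28.5 (21.2-37.4) and 50.4 (40.8-61.6), a ratio of 1.77 (1.25-2.54), and within the cluster found in both libraries the ratio was 2.11 (1.42-3.18). Osteoblast-like cells, with 36 and 28 cells, held 125 (97.0-160) and 211 (175-253). The highest Ramp1 levels of any cluster were in 2 unnamed ones. The cluster led by Prtn3, Ctsg and Mpo, granule genes of myeloid progenitors, held 353 (311-399) and 244 (224-264), with a UMI in 94.6% and 77.1% of cells, and the one led by Siglech, Stat4 and Flt3 held 286 (241-337) and 260 (226-297).

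The 2 parts of the CGRP receptor were therefore seldom counted in 1 endothelial-like cell. Of cells with a Calcrl UMI, 2 of 483 in the PBS (0.414%) and 4 of 595 in the CFA library (0.672%) also had a Ramp1 UMI. Ramp2, the partner for adrenomedullin, was found in 437 of the 483 (90.5%) and 497 of the 595 (83.5%), and Ramp3 in 82 (17.0%) and 69 (11.6%). In mural-like cells, 32 of 61 Calcrl cells in the PBS (52.5%) and 37 of 82 in the CFA library (45.1%) had a Ramp1 UMI, close to the 55.0% and 43.2% of all mural-like cells. In neutrophil-like cells of the CFA library the share was 45 of 102 (44.1%), against 24.6% of all cells of the class. That class pooled 2 clusters of unequal depth. In the CFA library the Camp cluster had 284 Calcrl and 134 Ramp1 UMIs in 145 cells, and the other 39 and 22 in 184. Whether the difference held within a cluster was not tested. In B cell-like cells it was 32.3% against 11.5% with PBS and 26.5% against 14.7% with CFA.

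**Figure D4:**
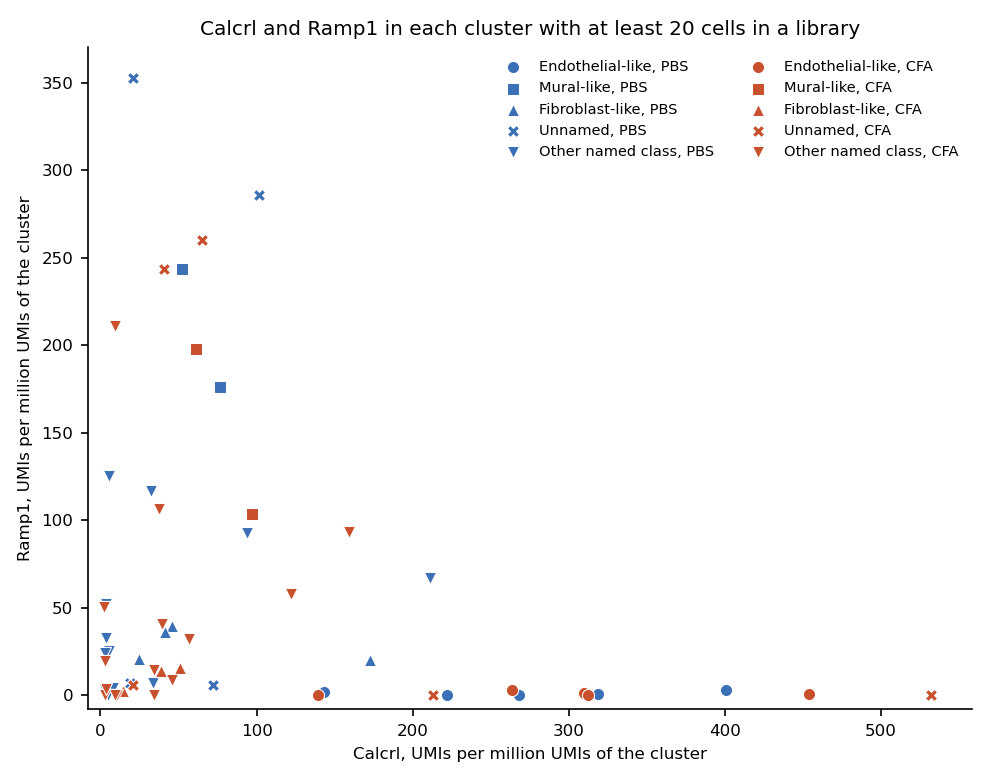
Calcrl against Ramp1 (both CPM of the cluster) for each cluster with at least 20 cells in a library, coloured by library and shaped by class. Endothelial-like clusters lie along the Calcrl axis with Ramp1 near 0, and mural-like and some unnamed clusters lie high on the Ramp1 axis.

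Ramp2, Adm and Ramp3 in the endothelial-like class were lower in the CFA library. Ramp2 was 805 (783-829) and 554 (536-571) CPM, a ratio of 0.687 (0.658-0.717). Adm, the gene of adrenomedullin, had 98 and 38 UMIs, a ratio of 0.332 (0.222-0.487), and Ramp3 had 145 and 129, a ratio of 0.761 (0.596-0.972). In mural-like cells Ramp2 had 298 and 89 UMIs, 3.89-fold lower. The lower Ramp2 level was not limited to vessel classes. Neutrophil-like cells were also past 2-fold lower, as were B cell-like cells, on 16 UMIs over both libraries. The neutrophil-like cluster led by Camp had 27 and 16 UMIs, a ratio of 0.157 (0.0789-0.302). Tenocyte-like cells were not lower, at 1.04 (0.831-1.30), nor was the Col2a1 chondrocyte-like cluster, at 1.49 (1.01-2.22). Whether the difference was library-wide was not tested. Ackr3, an atypical receptor that also takes up adrenomedullin, was higher in fibroblast-like cells, at 293 (279-307) and 604 (584-624), a ratio of 2.06 (1.95-2.19).

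A few cells with many neuronal transcripts were found in the CFA library, and they held most of its Calca, Calcb and Tac1 UMIs. A cell was called neuron-like when it had a UMI of at least 5 of 8 neuron markers (Tubb3, Snap25, Rbfox3, Prph, Scn10a, Nefh, Elavl4, Stmn2), a threshold set after the counts of markers per cell had been seen. The CFA library had 6 such cells, with 6 to 8 markers, and no other cell of either library had more than 3. The PBS library had 0 of 2667, which allows a share of up to 0.112%. The CFA share was 0.149% of 4014 cells, with an interval of 0.0549-0.325% that holds this limit. A difference between the libraries in the share of such cells was therefore not resolved. The barcodes left out by the limits were not searched for them. Their UMI totals were 112787, 63066, 41942, 39787, 36108 and 15548. Of these, 5 had clustered with sublining fibroblasts and 1 with nonmyelinating Schwann cells, and together they held 8 UMIs of the fibroblast collagen gene Col1a2.

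These 6 cells held 1822 of the 1867 UMIs (97.6%) in the CFA library of Calca, which encodes CGRP, and 621 of 674 (92.1%) of Tac1, which encodes substance P. They held 60 of 66 UMIs of Calcb, a second CGRP gene, and 85 of 104 (81.7%) of Gfra3, the artemin co-receptor. Calcb was named after its values were seen. Among the 9 genes, Bdnf had 66 of 174 UMIs (37.9%) in them, of which 44 were in 1 cell, and Ngfr 6 of 36 (16.7%). Ntrk3 had 23 of 1053 (2.18%), Ntrk2 8 of 2008, Ntf3 6 of 1045, and Calcrl and Ramp1 1 each. Gdnf and Artn had 0.

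**Figure D5:**
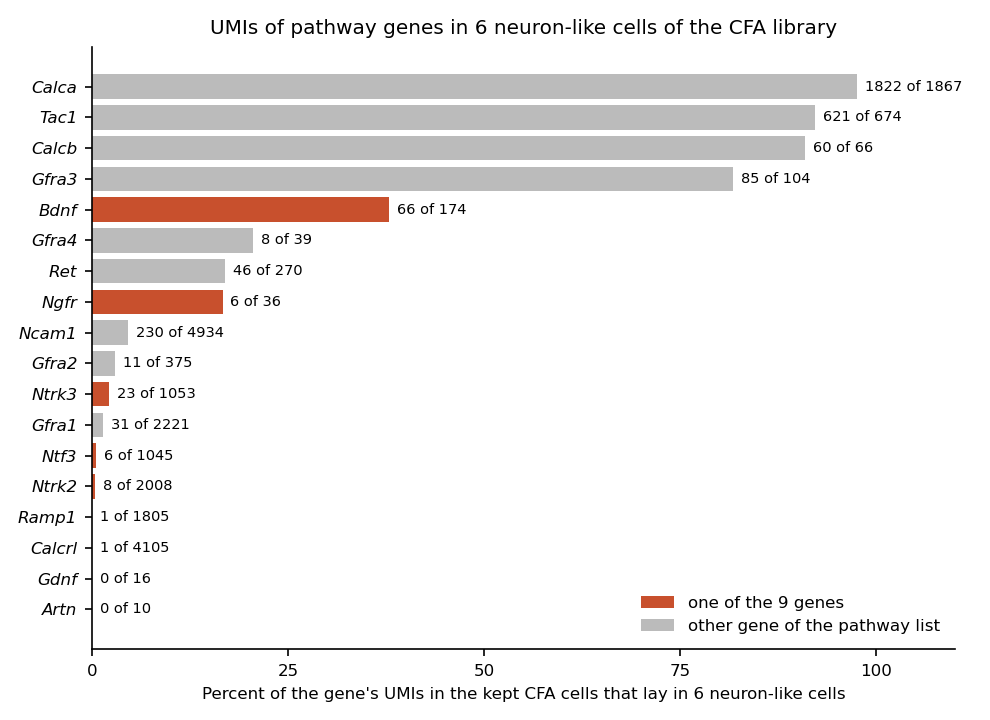
Percent of each gene's UMIs in the kept CFA cells that lay in the 6 neuron-like cells, with the UMIs written beside each bar. The share was 97.6% for Calca and 37.9% for Bdnf, and 2.18% or less for Ntrk3, Ntf3, Ntrk2, Calcrl and Ramp1.

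The counts of these genes past 2-fold can be set beside the same count over all genes with at least 10 UMIs in a class. In endothelial-like cells 2 of 6 tested genes were past 2-fold, Bdnf and Ntrk2, both lower in the CFA library, with 8 and 2 UMIs of Bdnf and 25 and 4 of Ntrk2, against 14.3% of all genes (8.05% lower and 6.22% higher). In mural-like cells it was 0 of 6, against 12.4% (6.74% lower and 5.65% higher). In fibroblast-like cells, with the neuron-like cells left in, it was 3 of 8, Bdnf higher and Ntrk3 and Ramp1 lower, against 16.8% (6.6% lower and 10.2% higher). Without the neuron-like cells Ngfr was also past 2-fold lower there, on 14 and 3 UMIs. Schwann-like cells had 2 of 5, Ntf3 and Ntrk3, both lower, against 15% (4.78% lower and 10.3% higher), and Ntf3 there had 8 and 3 UMIs.

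Tenocyte-like cells had 3 of 6 past 2-fold, Ntrk2 higher and Bdnf and Ntrk3 lower, against 13.9% of all genes (8.23% lower and 5.69% higher). Satellite-like cells had 1 of 2, Bdnf higher, against 20.9% (9.09% lower and 11.8% higher). Chondrocyte-like cells had 0 of 2, against 16.6% (10.2% lower and 6.39% higher), and B cell-like cells 0 of 2, against 13.5% (8.46% lower and 5.06% higher). Neutrophil-like cells had 2 of 4, Ntf3 and Ntrk3 lower, with 11 and 1 UMIs of Ntrk3, against 27.4% (17.5% lower and 9.93% higher). Erythroid-like cells had 4 of 5, Ntf3, Ntrk2 and Calcrl higher and Ntrk3 lower, against 26.5% (11.2% lower and 15.3% higher), beside the unequal depth of that class. The median ratio of the tested genes was 0.859 in endothelial-like cells, where it was 0.997 over all genes, 0.923 in mural-like cells (all genes 0.993) and 0.713 in fibroblast-like cells (all genes 1.01).

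The other 26 genes of the list of neurotrophin, GDNF family, CGRP, adrenomedullin and tachykinin ligands and receptors were counted the same way. In endothelial-like cells 1 of 13 tested was past 2-fold higher, Tacr1, and 3 lower, Sorcs2 and Adm among them. In mural-like cells 1 of 11 was higher, Ncam1, and 3 lower, Sorcs2, Gfra1 and Ramp2. In fibroblast-like cells 6 of 20 were higher, Gfra3, Calca, Calcb, Ackr3 and Tac1 among them, and 1 lower, Nrtn. Without the neuron-like cells, Gfra3 had 0 UMIs in fibroblast-like cells of both libraries, Calca 1 and 5, Calcb 1 and 0, and Tac1 47 and 13, so that of these 5 Ackr3 was the one still higher on more than 5 UMIs. In Schwann-like cells 4 of 14 were higher, Ncam1, Ramp2, Ackr3 and Tacr1, and 3 lower, Calcr, Ramp3 and Crcp. Ramp2 in Schwann-like cells was no longer higher without the Fabp7 cluster and the neuron-like cell, at a ratio of 0.930 (0.574-1.5).

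Tacr1, the receptor of substance P, was found in venular cells, with 37 UMIs in 10 of 104 PBS cells and 642 in 41 of 187 CFA cells, or 26.3 (18.5-36.2) and 230 (212-248) CPM. The ratio was 8.74 (6.27-12.5), and the highest single cell held 109 of the 642 UMIs. Gfra1, the GDNF co-receptor, was at 737 (694-781) and 641 (605-679) in Schwann-like cells and 688 (638-740) and 703 (646-764) in B cell-like cells. Calcr, the calcitonin receptor, lay with satellite-like cells, where it was among the cluster's leading genes.

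Genes whose levels followed those of the 6 well-counted genes over the 20 sums of a class in a library were ranked by Pearson correlation of log2(CPM + 10), among 14711 genes. The points share libraries and cell classes, so the values are a description. Ntf3 was most like Tspan12 (r = 0.954), Ebf3 (0.942) and Fzd4 (0.915). Igsf9b (0.912) and Ccn3 (0.898) were among the 3 genes most like Ntrk3. Ntrk2 followed Serpine2 (0.927), Map1a (0.923) and Mamdc2 (0.906), and Bdnf followed 4833422C13Rik (0.909), Clstn2 (0.860) and Lin7a (0.859). Calcrl was most like 9930111J21Rik2 (0.913), Sp100 (0.911) and BC028528 (0.910), and Ramp1 like Impa2 (0.881), Tuba1c (0.868) and Pde1b (0.867).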

How the data were processed

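Single-cell 3′ RNA-seq was made from the TMJ, with 1 library per condition; the methods give 3 mice. The authors ran Cell Ranger 7.0.1 on mm10 and deposited raw UMI counts per gene and barcode, without normalization. The labels and the methods differ in the dissociation enzymes and the kit version, and both libraries share either account. The annotation release is not given in the sources used here. Per-gene counts cannot separate overlapping transcripts or isoforms.

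Cells with at least 500 genes, at most 10% mitochondrial and at most 1% hemoglobin UMIs were kept. Seurat 5.3.0 (sctransform 0.4.2, R 4.3.3) normalized each library with SCTransform and integrated both on 3000 features, with the genes of the pathway list left out, then clustered on 200 principal components at resolution 1.5 (seed 1). A cluster was named from 26 marker lists when at least 3 markers were in at least 25% of its cells and at least 2-fold above other cells. It stayed unnamed when another list led its 10 leading genes, or when its median UMI count was under 0.333 of its libraries' and no marker of its own was among those genes. The naming rule was changed once, after its first outcome was known. Doublets were kept, because Scrublet (scanpy 1.11.5) marked 23 of 6681 cells (0.344%) and so had not worked. All 9 genes, the pathway list and the markers were chosen with earlier results of these data known.

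UMIs were summed per class and library (exact Poisson intervals), shares carry Clopper-Pearson intervals, and CFA to PBS ratios exact conditional binomial ones. A count of 0 was given a limit of 3 counts per library, also in ratios. UMIs remove PCR copies but intervals cover counting error only. No p-value was computed. Genes named from the pathway list had at least 100 UMIs unless said otherwise. Python 3.11.15 with numpy 2.4.6, scipy 1.17.1, pandas 2.3.3 and matplotlib 3.10.9 was used. On simulated data for the mural-like class (11105 genes), 200 of 200 genes changed 4-fold were recovered and the intervals held the true ratio for 96.1% of genes. The simulated counts were Poisson draws, the model behind the intervals, so this checks the code only. It leaves out the clumping of UMIs in single cells and any difference between mice. Gene positions are from GENCODE M21 and upstream windows from RefSeq, which matched 8 of 9 genes. Some genes of the pathway list are not reported here.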

Additional observations from a re-analysis of the deposited data

Results flagged for a closer look

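The barcodes left out by the limits on genes, mitochondrial and hemoglobin UMIs, which no comparison used, carried Ntrk2 at 27.1 (23.8-30.7) CPM in the CFA library, from 246 UMIs in 1695 barcodes, above the 18.3 (16.6-20.04) of the control library, from 437 UMIs in 5004 barcodes. The other 8 genes were not higher in the left-out CFA barcodes beyond their intervals. The left-out barcodes have no cell class, so the level cannot be set beside that of a class.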

How the results depend on the processing

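Ntf3, Ntrk2, Ntrk3, Calcrl and Ramp1 kept their leading class under every alternative clustering and filter, while Bdnf was highest in tenocyte-like cells with 50 principal components (40.9 CPM) and in satellite-like cells with at least 1000 genes per cell (58.0). The Ntf3 and Ntrk2 ratios, whose intervals held 1, crossed 1 as a mean over cells. No paired analysis was possible because each condition has 1 library, and for the same reason no replicate could be left out. Resolution 0.8 and no hemoglobin limit moved no level, share or ratio in a leading class beyond its counting interval, nor did median-ratio scaling move a ratio. Neuron-like cells lay in no leading class, so that their removal tests nothing there, and without them the fibroblast-like Bdnf ratio of 7.16 was 2.44. The intervals of the Bdnf and Ntrk3 ratios in mural-like cells left out 1 as reported but held it under 5 and 2 alternatives, and that of Ntrk2 left out 1 on log-normalized counts alone; the causes of the following moves were not tested. Mural-like levels over both libraries were, for Ntrk3 (136), 155 with 50 principal components, 157 with up to 20% mitochondrial UMIs, 159 with pathway genes among the features, 152 with each cell classed on its own, 149 without the highest 5% of Scrublet scores and 122 without the top cell of each library. For Ramp1 (164) they were 183, 191, 190 and 177 under the first 4 of these and 141 as a mean over cells, and for Ntrk2 (230) 248 with pathway genes, 255 with up to 20% mitochondrial UMIs, 256 without the highest Scrublet scores and 212 without the top cells. The Ntrk3 ratio (0.770) was 0.629 with up to 20% mitochondrial UMIs, 0.645 with each cell classed on its own, 0.918 on log-normalized counts without integration and 0.934 without the highest Scrublet scores; the Ramp1 ratio (0.640) was 0.768 and 0.797 under the last pair. The Ntrk2 ratio (1.08) was 1.30 on log-normalized counts and 0.924 as a mean over cells, which also gave a Calcrl ratio of 1.06 (1.21) and level of 285 (306) and an Ntf3 ratio of 1.12 (0.985) and level of 123 (87.0) in endothelial-like cells. Log-normalized counts gave shares of 54.1% for Calcrl and 28.5% for Ntf3. Gdnf in tenocyte-like cells (1.74 CPM, 1.52% of cells) was 7.87 and 8.82% with 50 principal components or at least 1000 genes, 4.70 and 4.35% with each cell classed on its own, and 0.584 without the top cells, which left too few UMIs for a Gdnf ratio and 0 CFA UMIs of Ngfr in satellite-like cells, a ratio of at most 0.443 (0.121). Thinning to 1000 and to 2000 UMIs lowered the shares of leading-class cells with a UMI to 14.8% and 26.2% (Ntrk2), 8.0% and 13.5% (Ntrk3), 13.3% and 24.9% (Ramp1), 2.5% and 4.92% (Bdnf), 22.3% and 37.1% (Calcrl), 10.2% and 17.8% (Ntf3) and 0.0% and 0.0% (Artn), with Gdnf at 0.379% after 1000 and Ngfr at 1.43% after 2000. Removing the top cells and the neuron-like cells or the Fabp7 cluster was chosen after seeing the data. Leaving out the highest Scrublet scores is not a doublet check, because Scrublet had not worked. Ngfr, Gdnf and Artn, each under 100 UMIs, are limited by depth. Ratios outside the leading classes, those of tenocyte-like cells among them, were not compared between clusterings.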
